A study of Mus musculus with 9 samples.

Results

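The 3 GADD45 genes (Gadd45a, Gadd45b and Gadd45g) and the 2 stress-induced polo-like kinase genes Plk2 and Plk3 were followed in mouse granulosa cells before and after an ovulatory dose of hCG. They are 5 of the 25059 gene identifiers in the deposited tables, found by symbol, and each is a single identifier whose rows were summed. They were selected on their FPKM at 0, 1 and 6 h as well as by family, and Gadd45b and Plk2 were already known to be among the highest changes at 1 h. Their levels and changes are therefore given as a description, with no test. All 5 passed the filter of 1 FPKM or more in at least 3 libraries that left 14535 genes for testing. Plk3 passed it with 8 libraries, 2 of them from the 3 at 0 h, and the other genes with all 9.

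GADD45 proteins are small acidic proteins without enzymatic activity of their own that are induced by DNA damage, cytokines and other stress. They bind and switch on the kinase MAP3K4, which leads to the p38 and JNK MAP kinases, they contact the cell-cycle proteins CDK1, PCNA and p21, and they have been linked to active removal of DNA methylation. PLK2 and PLK3 are serine/threonine kinases whose transcripts, unlike that of the mitotic kinase PLK1, are induced within a short time by growth factors, hormones or stress. PLK2 takes part in centriole duplication and in synaptic scaling, and PLK3 in checkpoint and hypoxia responses. In the ovary, the LH receptor that hCG engages signals through cyclic AMP and protein kinase A, a route that activates many immediate-early genes.

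The cells were granulosa cells, the somatic cells around the oocyte, from ovaries of Kunming mice at postnatal day 21, with no genetic alteration named in the labels. All mice received 5 IU of PMSG, a gonadotropin that drives follicle growth, and cells were taken from 3 groups of 3 libraries each: 0 h (48 h of PMSG, no hCG), 1 h after 5 IU of hCG and 6 h after 5 IU of hCG. The labels leave unsaid whether the 3 libraries of each group were prepared from different mice, and p-values below measure the spread between libraries, which may be technical. Hours after hCG cannot be told apart from the time of day, since hCG-free libraries at 1 and 6 h were not analysed here. In bulk RNA, fewer cells of a type and less RNA per cell cannot be told apart. Values are FPKM, reads scaled to transcript length and library size, as the authors deposited them, and sum to between 491920 and 570986 per library. The depth in reads is unknown. The FPKM sum was highest at 1 h (527034 to 570986 per library), against 491920 to 495500 at 0 h and 513434 to 539279 at 6 h. Of 10 granulosa markers, none was at 0 in all libraries, and their summed level ran from 10329 to 10990 FPKM at 0 h, 10332 to 15547 at 1 h and 3962 to 4352 at 6 h, with 3 higher and 1 lower at 1 h against 0 h and 9 lower at 6 h against 0 h. The oocyte markers, 9 genes of which 8 were tested, summed to 41.2 to 65.3, 54.3 to 65.0 and 74.0 to 110 FPKM at the same 3 times, and all 8 tested were higher at 6 h than at 0 h at a limma adjusted p below 0.05. The theca and stroma markers, 9 genes, summed to 172 to 274, 232 to 377 and 86.4 to 108 FPKM, with 4 of 9 lower at 6 h than at 0 h. Much of that sum was Cyp17a1, with means of 123, 193 and 21.9 FPKM at 0, 1 and 6 h. Others moved less, such as Col1a1 (20.2, 23.7 and 16.7) and Pdgfra (4.83, 4.69 and 5.04). Of the endothelial, leukocyte, erythroid and surface epithelial markers none was called at 1 h against 0 h. At 6 h against 0 h 3 of 7 tested endothelial markers were higher. Of the tested markers, 1 of 4 leukocyte, 2 of 4 erythroid and 2 of 6 epithelial ones were lower at 6 h. Beside these marker counts, 9.68% of all genes tested were called higher and 5.98% lower at 1 h against 0 h. At 6 h against 0 h these shares were 28.8% and 27.9%. The part of these markers in the results below was not tested.

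The bases before the start of 4 of these genes are shown because Plk2 and Gadd45b, whose levels moved furthest, can be set beside their less changed relatives. They are 250 bases of RefSeq promoter sequence (GRCm38.p6), 5′ to 3′ on the strand of the gene, and for Gadd45b the last 18 bases were left out because the annotated transcript starts there. In Plk2 the capitals mark a cyclic AMP response element (CRE, TGACGTCA). In Plk3 they mark the shorter core of that element, TGACG. In both GADD45 genes they mark the E-box CACGTG, the CCAAT box and the TATA motif TATAAA. The runs lie at chr13:110394794-110395043 on the plus strand (Plk2), chr10:80929841-80930072 on the plus strand (Gadd45b), chr13:51846425-51846674 on the plus strand (Gadd45g) and chr4:117133964-117134213 on the minus strand (Plk3).
Plk2: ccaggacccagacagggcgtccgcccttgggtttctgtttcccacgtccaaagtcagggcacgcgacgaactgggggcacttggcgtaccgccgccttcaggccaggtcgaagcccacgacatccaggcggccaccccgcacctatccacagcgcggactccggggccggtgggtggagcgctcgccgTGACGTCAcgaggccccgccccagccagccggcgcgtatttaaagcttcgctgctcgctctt
Gadd45b: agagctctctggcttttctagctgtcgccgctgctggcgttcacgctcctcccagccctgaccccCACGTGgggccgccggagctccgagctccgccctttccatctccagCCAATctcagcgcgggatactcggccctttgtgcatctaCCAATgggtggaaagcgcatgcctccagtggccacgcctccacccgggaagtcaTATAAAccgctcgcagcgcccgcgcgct
Gadd45g: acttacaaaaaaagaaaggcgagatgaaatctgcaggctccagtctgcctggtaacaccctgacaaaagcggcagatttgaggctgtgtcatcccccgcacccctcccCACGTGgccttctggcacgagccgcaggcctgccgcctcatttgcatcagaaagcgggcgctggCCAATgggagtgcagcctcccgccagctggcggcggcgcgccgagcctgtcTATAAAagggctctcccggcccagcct
Plk3: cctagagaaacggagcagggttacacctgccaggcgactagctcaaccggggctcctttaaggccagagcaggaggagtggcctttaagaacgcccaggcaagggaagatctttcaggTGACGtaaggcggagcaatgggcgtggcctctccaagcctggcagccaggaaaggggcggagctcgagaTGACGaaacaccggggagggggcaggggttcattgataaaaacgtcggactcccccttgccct

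Both strands of the 250 bases before each start were searched, and positions are counted backwards from the RefSeq start. The full CRE at -62 to -55 made Plk2 the only one of the 5 genes with this motif, which was found in 1.55% of 32851 promoters of the same length. The same 8 letters hold an overlapping pair of cores on opposite strands, and Plk3 has cores at -132 to -128 and -63 to -59. The core was in 17.8% of all promoters. Gadd45b carries CACGTG at -185, CCAAT at -139 and -100, and TATAAA at -46. Gadd45g carries the same 3 motifs at -142, -78 and -27. These motifs were found in 6.02% (CACGTG), 33.8% (CCAAT) and 12.4% (TATAAA) of all promoters, and Gadd45a holds CCAAT alone of these 3. A loose NF-kappa-B motif, left unmarked in the runs above, was in 4 of the 5 genes, Gadd45b being the exception, and in 45.8% of all promoters. In Gadd45a its matches (-40 to -30) all lie in the last 50 bases, which are part of the annotated transcript. No AP-1 (TGANTCA, 6.75% of all promoters), EGR (GCGGGGGCG or GCGTGGGCG, 3.06%), FOXO (GTAAACA, 3.17%) or CArG motif (1.47%) was found in any of the 5. A match or its lack describes these letters in these windows and nothing about binding.

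Plk2 (ENSMUSG00000021701, chr13:110395046-110400844, plus strand, mm10) encodes the kinase formerly called Snk. It had 5.45, 5.15 and 6.05 FPKM in the 3 libraries at 0 h, 190, 121 and 198 at 1 h, and 11.0, 14.8 and 11.3 at 6 h. All 1 h libraries lay above all others, the lowest being replicate 2, and all 6 h libraries lay above all 0 h libraries. The mean at 1 h, 170 ± 42.4 FPKM (SD, n = 3), was 30.6 times the 0 h mean of 5.55 ± 0.456, a change of 4.67 ± 0.18 (SE) on the log2(FPKM + 1) scale, the 8th highest of 14535 genes tested. At 6 h the mean was 12.4 ± 2.09 FPKM, 2.23 times the 0 h mean. Against 1 h the 6 h change of -3.65 on the same scale was the 10th lowest. At 1 h the level exceeded that of 97.1% of tested genes, at 0 h that of 35.1% and at 6 h that of 56.5%.

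Gadd45b (ENSMUSG00000015312, chr10:80930073-80932204, plus strand) is a GADD45 gene known as a target of NF-kappa-B and TGF-beta signalling. It had 3.76, 4.98 and 3.90 FPKM at 0 h, 161, 102 and 155 at 1 h, and 9.22, 6.73 and 7.07 at 6 h. As with Plk2, every 1 h library was above every other library and replicate 2 was the lowest of the 1 h libraries. The mean at 1 h, 139 ± 32.2 FPKM, was 33.1 times the 0 h mean of 4.22 ± 0.669, a log2 change of 4.73 ± 0.18 (SE), the 7th highest of all genes tested. At 6 h it was 7.67 ± 1.35 FPKM, 1.82 times the 0 h mean and 0.0550 times the 1 h mean, the 6th lowest change between 6 h and 1 h at -4.00. Its ratio to Plk2 was close in the 1 h libraries, 0.847, 0.846 and 0.780, against 0.690, 0.968 and 0.645 at 0 h. At 6 h the ratio was 0.838, 0.455 and 0.623.

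**Figure D1:**
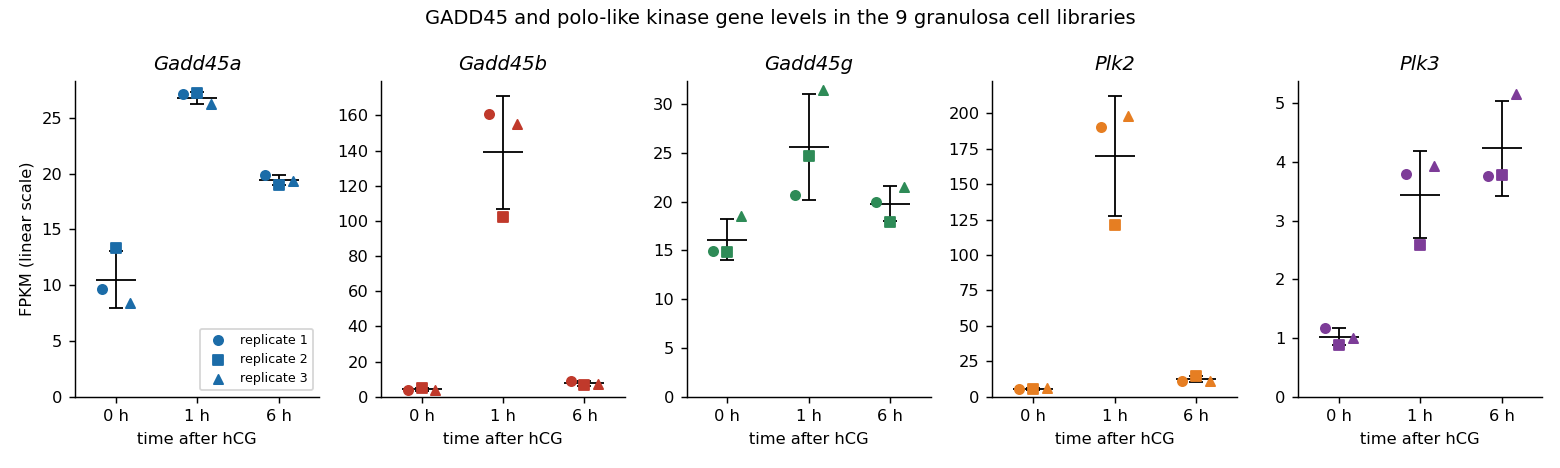
FPKM of the 3 GADD45 genes and of Plk2 and Plk3 in each of the 3 libraries at 0, 1 and 6 h after hCG, 1 panel for each gene on its own linear axis, with points for libraries and bars for the group mean and SD (n = 3). The 1 h libraries of Gadd45b (102 to 161 FPKM) and Plk2 (121 to 198 FPKM) stand apart from all other libraries.

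Gadd45a (ENSMUSG00000036390, chr6:67035096-67037457, minus strand) is the GADD45 gene best known as a p53 target. It had 9.70, 13.3 and 8.38 FPKM at 0 h, 27.1, 27.2 and 26.2 at 1 h, and 19.9, 19.0 and 19.3 at 6 h. The 3 groups did not overlap, and the replicates at 1 h and 6 h lay closer together than those at 0 h. Its mean at 1 h, 26.8 ± 0.523 FPKM, was 2.57 times the 0 h mean of 10.5 ± 2.55, a log2 change of 1.30 ± 0.13 (SE). At 6 h the mean of 19.4 ± 0.461 was 1.86 times the 0 h mean (log2 change 0.86). The 6 h mean was 0.723 times the 1 h mean.

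Plk3 (ENSMUSG00000028680, chr4:117128655-117133963, minus strand) encodes the kinase formerly called Fnk. It was the lowest of the 5 genes, with 1.17, 0.886 and 1.00 FPKM at 0 h, 3.79, 2.59 and 3.93 at 1 h, and 3.76, 3.77 and 5.16 at 6 h. The 1 h and 6 h libraries overlapped each other and all lay above the 0 h libraries. The mean at 1 h, 3.44 ± 0.738 FPKM, was 3.36 times the 0 h mean of 1.02 ± 0.145 and at 6 h it was 4.23 ± 0.807, 4.14 times. On the log2(FPKM + 1) scale, which understates low genes, these changes were 1.12 ± 0.16 and 1.36 ± 0.16 (SE). Of its 2 transcript rows, the second held 60.0% of the FPKM (2.26 FPKM) in 6 h replicate 1, 42.4% in 0 h replicate 2 and 30.4% in 1 h replicate 2, and at most 2.03% elsewhere. No such division was seen for Gadd45a, whose 3 rows left all but traces of FPKM on 1, and the other 3 genes had 1 row each.

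Gadd45g (ENSMUSG00000021453, chr13:51846678-51848468, plus strand), the GADD45 gene known for its part in gonadal sex determination in mice, had 14.9, 14.8 and 18.5 FPKM at 0 h, 20.7, 24.7 and 31.5 at 1 h, and 20.0, 17.9 and 21.5 at 6 h. All 1 h libraries lay above all 0 h libraries, but the 6 h libraries overlapped both other groups. The mean at 1 h, 25.6 ± 5.46 FPKM, was 1.60 times the 0 h mean of 16.1 ± 2.12, a log2 change of 0.63 ± 0.15 (SE). The 6 h mean of 19.8 ± 1.82 FPKM was 1.23 times the 0 h mean.

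Set against the genes tested, the 1 h libraries lay wholly above the 0 h libraries for 5 of the 5 genes, where this held for 18.3% of all genes. All 6 h libraries lay above all 0 h libraries for 4 of 5, Gadd45g being the exception, against 32.9% of all genes, and all 6 h libraries lay below all 1 h libraries for Gadd45a, Gadd45b and Plk2, against 30.0% of all genes. Since the genes were selected with these contrasts in view, nothing is read from these shares. The directions of all 15 changes of the 5 genes were the same under every alternative processing.

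**Figure D2:**
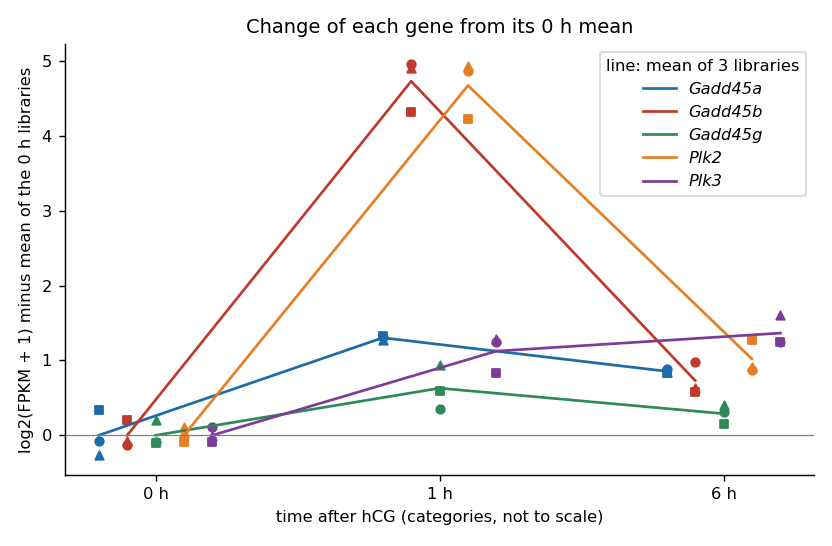
Change in log2(FPKM + 1) of each gene from its 0 h mean at 0, 1 and 6 h in the 3 libraries of each time. Gadd45b and Plk2 peak at 1 h and return most of the way by 6 h, while the mean of Plk3 is higher at 6 h than at 1 h by 0.24.

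The share of the 1 h excess over 0 h that was present at 6 h differed among the 5 genes. It was 2.56% for Gadd45b and 4.15% for Plk2, 39.3% for Gadd45g, 54.6% for Gadd45a and 133% for Plk3, in means of 3 libraries. Without 1 h replicate 2 these shares were 2.25%, 3.62%, 37.5%, 55.2% and 113%. The 379 genes that were called higher at 1 h with a log2 change of 1 or more had a median share of 48.1% and quartiles of 7.70% and 151%. The 5 genes were not taken out before this set was formed, and Gadd45g, with a log2 change of 0.63, is below its threshold. Of the 379 genes, 61 were below their 0 h mean at 6 h and 128 held more than the whole excess. In 1 h replicate 2, Gadd45b was at 64.9% of the mean of the other 1 h libraries, Plk2 at 62.3% and Plk3 at 67.0%, while Gadd45a was at 102% and Gadd45g at 94.8%. Among the 379 genes, 301 (79.4%) were lowest in that library and their median was 74.1% of the others, whereas it was the lowest 1 h library for 38.8% of all genes tested. Without it the ratio of the 1 h to the 0 h mean was 37.4 for Gadd45b, 35.0 for Plk2 and 3.78 for Plk3.

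In the summed FPKM of the GADD45 genes the make-up of the family was different at 1 h. Over 3 libraries each it came to 30.7 ± 2.37 FPKM (SD) before hCG, 192 ± 32.5 after 1 h and 46.9 ± 2.90 after 6 h. Gadd45g held 52.4% of it at 0 h, 13.6% at 1 h and 42.2% at 6 h, and Gadd45b 13.7%, 72.1% and 16.3%. Gadd45a held 33.9%, 14.3% and 41.5%. Plk2 made up 84.5%, 98% and 74.3% of the Plk2 and Plk3 sum, which was 6.57, 173 and 16.6 FPKM at the same times.

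**Figure D3:**
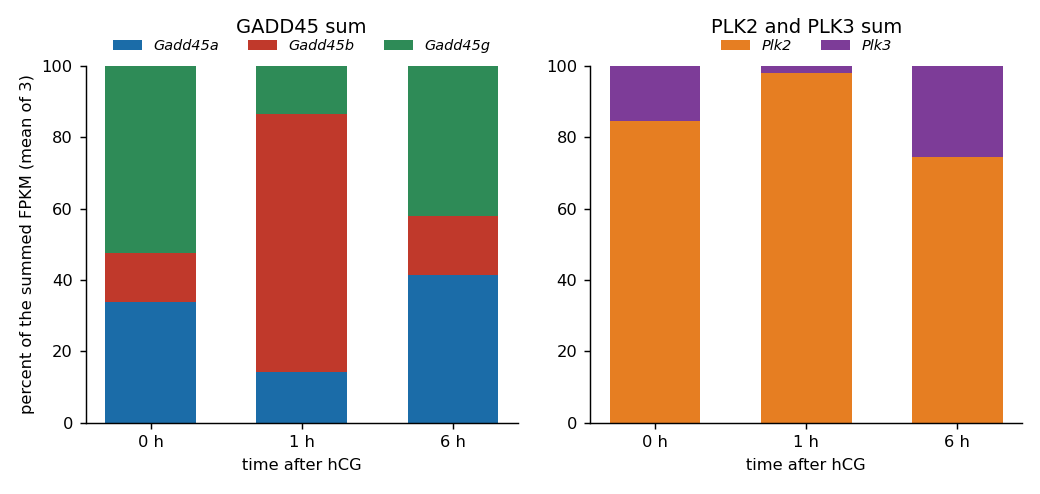
Shares of the summed FPKM held by each gene within the GADD45 family and within the Plk2 and Plk3 pair at 0, 1 and 6 h, as means of 3 libraries. Gadd45b holds 72.1% of the GADD45 sum at 1 h and 13.7% at 0 h.

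Likeness of patterns was measured as the root-mean-square difference over the 9 libraries of log2(FPKM + 1), each gene set to its own 0 h mean, among 9627 protein-coding genes. The 5 genes were left out of the ranking. Because 1 is added to the FPKM, this scale understates changes of low genes such as Plk3 and Nr4a2. Distances and their order can depend on it. For both Gadd45b and Plk2 the nearest of the ranked genes were Nr4a1 (0.13 from Gadd45b and 0.29 from Plk2), Nr4a2, Ptger4 and Sik1, in that order. Gadd45b and Plk2 differed from each other by 0.28. Nr4a1, an orphan nuclear receptor, had means of 33.0, 847 and 53.8 FPKM at 0, 1 and 6 h. Sik1, a salt-inducible kinase, had 10.0, 184 and 31.5 FPKM and Ptger4, a prostaglandin E2 receptor, 1.11, 29.4 and 2.47. The nearest to Gadd45a was Got1 (0.17), followed by Rrad, Chp1 and Trp53inp2. The nearest to Gadd45g was Zhx2 (0.14), with Tecpr2 and Uap1 also among its nearest. For Plk3 it was Cpeb2 (0.12), followed by Spry4, Nedd9 and Sh3bp5. Cpeb2 had means of 4.05, 9.71 and 11.2 FPKM at 0, 1 and 6 h, and Plk3 1.02, 3.44 and 4.23. Among the 5 genes, Gadd45a was nearest to Plk3 (0.40) and Gadd45g to Gadd45a (0.57), and any other gene of the 5 was at 1.97 or more from Gadd45b and Plk2.

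The genes beside the 5 on their chromosomes were not used in the selection, so limma was applied to the nearest tested protein-coding gene on each side. These lay from 11.8 kb (Lmnb2) to 1025 kb (Gpbp1) away, some with untested protein-coding genes between. At 1 h against 0 h 3 of these 10 neighbours were called higher and 0 lower, against 9.68% and 5.98% of all genes. Of the 10, 7 had an unadjusted p below 0.05, as did 30.9% of all genes (4489 of 14535). At 6 h against 0 h 4 were called higher and 1 lower (28.8% and 27.9% of all genes), and at 6 h against 1 h 2 were higher and 1 lower (26.7% and 26.9%). Pde4d, a cyclic AMP phosphodiesterase 442 kb from Plk2, with 2 untested protein-coding genes between, rose to 33.6 ± 9.59 FPKM at 1 h, against 2.85 ± 0.854 at 0 h (log2 change 3.15 ± 0.21, limma adjusted p = 1.16e-05). It was at 16.9 ± 1.47 FPKM at 6 h, higher than at 0 h (2.24, adjusted p = 1.48e-05) and lower than at 1 h (-0.91, adjusted p = 0.00479). Gng12, a G protein gamma subunit 13.7 kb from Gadd45a, was at 55.2 ± 6.59 FPKM at 6 h, against 24.1 ± 1.39 at 0 h (1.16, adjusted p = 6.12e-06), and at 30.1 ± 2.11 FPKM at 1 h (0.30, adjusted p = 0.0560). Lmnb2, a lamin gene 11.8 kb from Gadd45b, had 18.5 ± 2.42 FPKM at 1 h, against 14.9 ± 0.456 at 0 h (0.29, adjusted p = 0.0607). Serbp1, 201 kb from Gadd45a, and Gpbp1, 1025 kb from Plk2, were the other neighbours called higher at 1 h (0.30, adjusted p = 0.0251, and 0.38, adjusted p = 0.0131). Both calls ended without library 1 of 1 h (adjusted p = 0.0536 and 0.0538) or library 3 of 1 h (0.0694 and 0.0542), leaving 1 neighbour called higher, and after quantile normalization. Without library 2 of 1 h, 1 neighbour was called lower. The call of Serbp1 also ended without any 1 of the 0 h libraries (0.0544 to 0.0869). At 6 h against 0 h the higher count was 2 without library 1 of 0 h, library 2 of 0 h or library 2 of 6 h, and the lower count was 0 without library 1 of 0 h and 2 without library 2 of 0 h. At 6 h against 1 h the lower count was 3 without library 2 of 1 h or library 3 of 6 h. Eif2b3 beside Plk3 and Sema4d beside Gadd45g were called in no comparison. Slc39a3, 96.3 kb from Gadd45b, and Syk, 735 kb from Gadd45g, had calls at 6 h that ended when the most abundant row alone was used. That of Slc39a3 also ended without library 1 of 0 h (adjusted p = 0.0519).

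Of 131 related genes in 9 lists, 120 were tested. Some are in more than 1 list, such as Cdkn1a (GADD45 partners and p53 targets) and Map3k4 (partners and stress MAP kinases). They are counted once in the totals, but the counts of single lists share their calls. At 1 h against 0 h 21 were called higher and 6 lower (17.5% and 5.00%, beside 9.68% and 5.98% of all genes), with a median log2 change of 0.00. With libraries scaled to equal sums, which moves the median gene by -0.14, the counts were 13 and 27, and after quantile normalization 16 and 9. Without library 3 of 1 h the higher count was 13, and the lower count was 1 without library 3 of 0 h, 2 without library 1 of 1 h, 3 without library 1 of 0 h or library 3 of 1 h and 11 without library 2 of 1 h. At 6 h against 0 h 44 were higher and 30 lower (36.7% and 25%, beside 28.8% and 27.9%), and at 6 h against 1 h 38 and 32 (31.7% and 26.7%, beside 26.7% and 26.9%). Between 6 h and 1 h, the NF-kappa-B list had 8 higher and 3 lower, the stress MAP kinases 5 and 9, the p53 targets 8 and 6, the checkpoint genes 6 and 6, the GADD45 partners 4 and 2, the substrates 4 and 3 (5 and 2 with scaled sums), methylation turnover 3 and 2 (5 and 0) and the FOXO and ATF4 list 2 and 3. In this comparison 1 partner was lower without library 3 of 1 h or library 1 or 2 of 6 h. Of the methylation turnover genes 1 was lower without library 2 or 3 of 1 h and 0 without library 1 or 2 of 6 h, and in the FOXO and ATF4 list 1 was higher without library 2 of 1 h or 6 h.

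Among the partners that GADD45 proteins bind, 2 of 11 tested were higher and 0 lower at 1 h (1 and 1 with scaled sums), beside 9.68% and 5.98% of all genes. At 6 h against 0 h 4 were higher and 2 lower (beside 28.8% and 27.9%). At 1 h 4 of the 11 had an unadjusted p below 0.05, beside 30.9% of all genes, and the higher count was 1 when library 2 or 3 of 0 h, library 3 of 1 h or library 2 of 6 h was left out and 3 without library 2 of 1 h. Cdkn1a, which encodes the cell-cycle inhibitor p21, rose to 11.9 ± 2.97 FPKM at 1 h, against 5.60 ± 1.29 at 0 h (log2 change 0.96, limma adjusted p = 0.00496), and to 33.3 ± 2.60 FPKM at 6 h (2.39, adjusted p = 2.55e-06). Map3k4, the kinase that GADD45 proteins activate, was at 20.4 ± 1.41 FPKM at 1 h, against 22.4 ± 2.05 at 0 h (-0.13, adjusted p = 0.388), and fell to 16.3 ± 1.43 at 6 h (-0.44, adjusted p = 0.00261). Ing1, a chromatin-binding growth regulator, was at 18.8 ± 1.43 FPKM at 6 h, against 12.3 ± 0.603 at 0 h (0.57, adjusted p = 2.88e-04).

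In the stress MAP kinase cascade 3 of 20 tested genes were higher and 1 lower at 1 h (beside 9.68% and 5.98% of all genes). The counts were 2 and 4 with scaled sums, and 0 were lower when any 1 of the 0 h or 1 h libraries was left out. At 6 h against 0 h 6 were higher and 9 lower (beside 28.8% and 27.9%). Map3k1, a kinase of the JNK branch, was at 25.6 ± 3.14 FPKM at 1 h, against 14.6 ± 1.80 at 0 h (0.77, adjusted p = 0.00241). Mapkapk2, a kinase below p38, was at 38.1 ± 2.67 FPKM at 1 h, against 25 ± 1.36 (0.59, adjusted p = 0.00228). The third, Mapkapk3 (0.76, adjusted p = 0.0354), did not pass when replicate 1 or 3 of 0 h, replicate 1 or 3 of 1 h or replicate 2 of 6 h was left out, with an adjusted p of 0.0514 to 0.122. At 6 h, Map2k4, an activator of JNK, was at 49.5 ± 1.01 FPKM, against 20.3 ± 1.70 at 0 h (1.25, adjusted p = 4.79e-07). Map3k5, a stress kinase also called ASK1, fell to 26.5 ± 4.94 FPKM, against 68.0 ± 9.96 (-1.33, adjusted p = 4.78e-05), and Map2k6, an activator of p38, to 4.21 ± 0.722 FPKM, against 10.5 ± 0.880 (-1.15, adjusted p = 3.35e-05).

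Of the polo-like kinases beside the 5 genes, Plk1 and Plk4 were called in no comparison, with 0 of 2 at an unadjusted p below 0.05. With scaled sums Plk1 was called lower at 1 h against 0 h (-0.41, limma adjusted p = 0.0487, 0.0487 to 0.645 over all alternatives) and higher at 6 h against 1 h (0.38, adjusted p = 0.0341, 0.0341 to 0.290). Plk1, the mitotic kinase, was at 20.7 ± 3.27 FPKM at 1 h, against 25 ± 4.58 at 0 h, and at 26 ± 2.94 at 6 h. Plk4, the kinase that starts centriole duplication, was at 17.2 ± 2.68 FPKM at 1 h, against 15.3 ± 0.411 at 0 h, and at 16.0 ± 1.97 at 6 h. Plk5 was listed at 0 in all but 1 library. Of the known substrates of PLK2 and PLK3, 2 of 13 were higher and 1 lower at 1 h (1 and 4 with scaled sums), beside 9.68% and 5.98% of all genes. At 6 h against 0 h 5 were higher and 3 lower (3 and 3 with scaled sums), beside 28.8% and 27.9%. The higher count at 1 h was 1 when any 1 library other than library 3 of 6 h was left out, and the lower count 0 without library 3 of 0 h. At 6 h the higher count was 3 without library 1 or 2 of 0 h, and the lower count 1 without library 1 of 0 h. Jun, which encodes a subunit of AP-1, rose to 318 ± 24.5 FPKM at 1 h, against 167 ± 22.6 at 0 h (0.93, adjusted p = 1.91e-04). Hif1a, the hypoxia-inducible factor, was at 180 ± 16.0 FPKM at 6 h, against 129 ± 6.63 at 0 h (0.48, adjusted p = 0.00121). Sipa1l1, a Rap GTPase-activating protein, was at 20.7 ± 0.513 FPKM at 6 h, against 12.3 ± 0.617 (0.71, adjusted p = 1.59e-05).

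Among p53 target genes other than those selected, 3 of 22 were higher and 1 lower at 1 h (1 and 4 with scaled sums), beside 9.68% and 5.98% of all genes. The 3 were Cdkn1a, which is also counted among the GADD45 partners, Mdm2 and Trp53inp1. At 6 h against 0 h 8 were higher and 6 lower (7 and 9 with scaled sums), beside 28.8% and 27.9%. Without library 1 of 0 h, 1 was higher at 1 h, and 0 were lower without library 2 or 3 of 0 h or library 1 or 3 of 1 h, and 2 without library 2 of 1 h. Ppm1d, a phosphatase that turns off p53 and p38, was at 22.6 ± 2.29 FPKM at 6 h, against 7.62 ± 0.710 at 0 h (1.45, adjusted p = 1.72e-06). Sesn2, a sestrin, was at 12 ± 1.18 FPKM, against 5.74 ± 0.317 (0.94, adjusted p = 1.69e-04). Mdm2, the ubiquitin ligase of p53, was at 28.8 ± 1.40 FPKM at 6 h, against 19.4 ± 0.231 at 0 h (0.55, adjusted p = 1.36e-04). Trp53, the p53 gene itself, was at 34 ± 1.77 FPKM at 1 h, against 34.8 ± 2.36 at 0 h (-0.04, adjusted p = 0.827), and at 44.2 ± 4.29 FPKM at 6 h (0.33, adjusted p = 0.00728, 0.0701 after quantile normalization). Eda2r, a receptor of the tumour necrosis factor family, fell to 1.27 ± 0.203 FPKM, against 4.02 ± 1.36 (-1.11, adjusted p = 0.00218). In the DNA damage checkpoint list, 0 of 20 were higher and 2 lower at 1 h (0 and 6 with scaled sums), beside the same 9.68% and 5.98%. At 6 h against 0 h 4 were higher and 8 lower (beside 28.8% and 27.9%). At 1 h 6 of the 20 had an unadjusted p below 0.05, beside 30.9% of all genes. The lower count at 1 h was 4 without library 2 of 1 h, and 1 without library 1 or 3 of 0 h or library 1 or 3 of 1 h. Rad50, part of the break-sensing MRN complex, fell to 17.2 ± 0.844 FPKM at 1 h, against 23.4 ± 0.611 at 0 h (-0.42, adjusted p = 0.0112), and to 11.5 ± 1.37 FPKM at 6 h (-0.97, adjusted p = 1.14e-05). Atr, a checkpoint kinase, was at 4.98 ± 0.254 FPKM at 6 h, against 11.3 ± 0.820 (-1.04, adjusted p = 1.15e-05), and Wee1, a kinase that inhibits CDK1, rose to 15.0 ± 0.986, against 8.46 ± 0.344 (0.76, adjusted p = 2.26e-04).

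The NF-kappa-B list had 7 of 18 tested genes higher and 0 lower at 1 h (6 and 3 with scaled sums), beside 9.68% and 5.98% of all genes. At 6 h against 0 h it had 13 higher and 1 lower (beside 28.8% and 27.9%). The higher count at 1 h was 6 when any 1 of the 0 h libraries was left out and 5 without library 1 or 3 of 1 h. At 6 h against 0 h the higher count was 10 to 13 without single libraries. At 1 h 9 of the 18 had an unadjusted p below 0.05, beside 30.9% of all genes, and 1 was lower without library 2 or 3 of 1 h. Tnfaip3, an inhibitor of NF-kappa-B signalling, rose to 5.21 ± 0.650 FPKM at 1 h, against 1.03 ± 0.275 at 0 h (1.61, adjusted p = 2.00e-04). Nfkb2, a subunit of the noncanonical branch, was at 20.9 ± 3.92 FPKM at 1 h, against 8.27 ± 0.584 (1.23, adjusted p = 1.58e-04), and at 19.6 ± 1.07 at 6 h. Nfkbia, the inhibitor I-kappa-B alpha, was not called at 1 h (16.6 ± 1.97 FPKM, against 19.5 ± 1.62 at 0 h, -0.22, adjusted p = 0.133), and rose to 61.2 ± 1.63 FPKM at 6 h (1.60, adjusted p = 5.42e-07). In the FOXO and ATF4 list 4 of 8 were higher and 1 (Foxo1) lower at 1 h (beside 9.68% and 5.98% of all genes). At 6 h against 0 h 3 were higher and 1 lower (beside 28.8% and 27.9%). The higher count at 1 h was 3 with scaled sums or after quantile normalization. It was also 3 when any 1 library other than library 3 of 0 h was left out. Ppp1r15a, a phosphatase subunit that reverses translation arrest and is also called GADD34, rose to 93.3 ± 7.82 FPKM at 1 h, against 39.3 ± 5.12 at 0 h (1.23, adjusted p = 9.23e-05), and at 6 h was at 34.2 ± 4.12 FPKM, lower than at 1 h (-1.42, adjusted p = 6.34e-06). Foxo3 rose to 36.4 ± 4.24 FPKM at 1 h, against 21.4 ± 1.97 (0.74, adjusted p = 8.33e-04), while Foxo1 fell to 32.9 ± 6.18 FPKM at 6 h, against 122 ± 14 at 0 h (-1.87, adjusted p = 3.93e-06). The lower call of Foxo1 at 1 h (-0.55, adjusted p = 0.0293) ended without library 1 of 0 h (0.0620) or 3 (0.101) and without library 1 of 1 h (0.101) or 3 (0.104), and with no filter on low values (0.0548). Atf4, the stress-response transcription factor, was at 114 ± 16.1 FPKM at 1 h and 143 ± 9.79 at 6 h, against 64.8 ± 4.58 at 0 h (0.80, adjusted p = 8.21e-04, and 1.13, adjusted p = 1.35e-05). Among genes of DNA methylation turnover 1 of 12 was higher and 0 lower at 1 h (0 and 3 with scaled sums), beside the same 9.68% and 5.98%. At 6 h against 0 h 4 were higher and 3 lower (beside 28.8% and 27.9%). At 1 h 5 of the 12 had an unadjusted p below 0.05, beside 30.9% of all genes. The counts at 1 h were 2 higher and 2 lower without library 2 of 1 h, and 0 and 0 without library 1 or 2 of 0 h or library 1 or 3 of 1 h. Tet3, a methylcytosine dioxygenase, was at 48.5 ± 3.47 FPKM at 6 h, against 30.2 ± 1.17 at 0 h (0.66, adjusted p = 1.77e-04), and Tet1 at 4.45 ± 0.408, against 8.63 ± 0.816 (-0.82, adjusted p = 7.04e-04).

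Several further calls at 1 h against 0 h among the related genes ended when 1 library, for most of them any of several, was left out. Cenpj, a centriole protein, was lower (-0.37, limma adjusted p = 0.0134), with an adjusted p of 0.0526 without library 3 of 0 h, and Trp53inp1, a p53-induced nuclear protein, was higher (0.45, adjusted p = 0.0146), with 0.0561 without library 1 of 0 h. Xpc, a nucleotide excision repair protein, and Brca2, a recombination protein, were lower (-0.41, adjusted p = 0.0148, and -0.42, adjusted p = 0.0248). The call of Xpc ended without library 2 or 3 of 0 h or library 1 or 3 of 1 h (0.0512 to 0.0605), and that of Brca2 without replicate 1 or 3 of either time (0.0687 to 0.0919). Mdm2 (0.27, adjusted p = 0.0305) did not pass without any 1 of the 0 h libraries or without library 1 or 3 of 1 h (0.0756 to 0.112). Pcna, the DNA polymerase clamp (0.57, adjusted p = 0.0359), did not pass without library 2 or 3 of 0 h, library 3 of 1 h or library 2 of 6 h (0.0529 to 0.116). Tet2, a methylcytosine dioxygenase (0.33, adjusted p = 0.0267), did not pass without library 1 or 2 of 0 h or library 1 or 3 of 1 h (0.0673 to 0.0955), or on its most abundant row (0.749). Ddit3, a stress transcription factor (0.57, adjusted p = 0.0416), did not pass without any 1 of the libraries other than library 3 of 0 h (0.0543 to 0.112). Npm1, a nucleolar protein (0.23, adjusted p = 0.0415), did not pass without any 1 of the libraries other than library 3 of 6 h (0.0541 to 0.130). Each of these calls other than those of Cenpj and Xpc also ended under at least 1 alternative that kept all libraries.

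**Figure D4:**
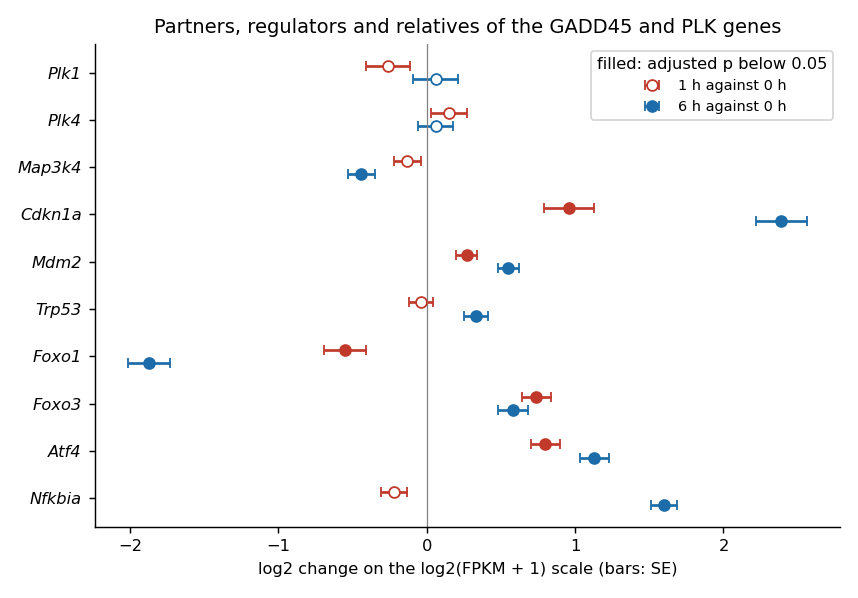
Log2 changes with SE from limma at 1 h against 0 h (red) and at 6 h against 0 h (blue) for 10 related genes named whatever their values, with filled points for an adjusted p below 0.05. Cdkn1a (0.96 and 2.39) and Foxo1 (-0.55 and -1.87) lie further from 0 at 6 h than at 1 h, and Nfkbia is filled at 6 h only (1.60).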

How the data were processed

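RNA-seq libraries of granulosa cells were analysed from per-library tables of FPKM that the authors deposited. Per the submitters' processing notes, HISAT2 2.0.5 and mm10 were used. What computed the FPKM, on which annotation and with which strand setting, is not stated in the labels or headers. The FPKM of a gene is the sum of its rows, over 54759 rows and 25059 identifiers (11778 with several rows), and 27 symbols stored as dates were restored. The 5 genes and the lists of related genes and markers were chosen with earlier results of these data known. Genes reaching 1 FPKM in 3 or more of the 9 libraries (14535) entered limma 3.58.1 (R 4.3.3) on the log2(FPKM + 1) scale, as 3 group means with a trended prior variance, 6 residual degrees of freedom, no covariate and Benjamini-Hochberg adjustment over all genes, and called at an adjusted p below 0.05. The design also provided for counts, and the FPKM branch was used. The test was checked on simulated data. Depth is unknown, so no counting interval is given. Coordinates and neighbours are from GENCODE M21 on mm10, promoters from RefSeq GRCm38.p6. Named genes were all 5, up to 3 called genes of each list with the largest change per comparison and 10 listed genes whatever their values, the 10 chromosome neighbours, and 4 nearest genes by pattern for each. Some genes named by this rule are not reported here. Likeness was restricted to genes reaching a group mean of 5 FPKM. Alternatives were another pseudocount, no filter, libraries scaled to equal sums, quantile normalization, the most abundant row alone, a replicate block, a fit of the compared groups alone, an untrended prior and leaving out each library. Samples were grouped by the labels. The labels do not say whether library numbers pair samples of different times, and only the replicate block used them as pairs.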

Additional observations from a re-analysis of the deposited data

How the results depend on the processing

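With a pseudocount of 0.1 the log2 changes of low genes were larger, at 5.00 for Gadd45b at 1 h, 1.64 for Plk3 at 1 h and 1.94 for Plk3 at 6 h against 0 h. Leaving out 1 library at a time moved no change of the 5 genes by more than the spread between replicates. Without single libraries, 904 to 1601 genes were called higher and 295 to 1223 lower at 1 h against 0 h, and with scaled sums 2634 were lower, with the median gene moved by -0.14 (by -0.09 at 6 h against 0 h and 0.06 at 6 h against 1 h). For the related genes at 1 h, the higher count was 13 with scaled sums and 13 to 20 without single libraries, and the lower count 27 and 1 to 11. For neighbours at 1 h, 1 was higher after quantile normalization and 1 to 4 without single libraries, and 2 were lower with scaled sums and 0 to 1 without single libraries. For neighbours at 6 h against 0 h, 2 were higher with the most abundant row alone or with scaled sums and 2 to 4 without single libraries, and 0 and 2 were lower under those 2 settings and 0 to 2 without single libraries. For neighbours at 6 h against 1 h, 1 was higher with the most abundant row alone, and 2 were lower with that row, after quantile normalization or with a replicate block, and 1 to 3 without single libraries. After quantile normalization Npm1 was no longer called at 1 h (-0.03, limma adjusted p = 0.827). At 6 h against 0 h it was then called lower (-0.21, adjusted p = 0.0356), against 0.00 without that normalization. With the most abundant row alone Slc39a3 was no longer called at 6 h against 0 h (0.09, adjusted p = 0.847). The cause was not tested. Deviations of same-numbered libraries from their group means correlated between -0.0783 and 0.147 over 14535 genes. Differently numbered libraries were not compared, and the labels do not say whether the numbers pair samples. With the replicate block 1306 genes were called higher and 685 lower at 1 h, against 1407 and 869 without it. Of the 104 calls of related and neighbouring genes that were named by rule, 75 passed under every alternative and 29 ended under at least 1. The depth in reads is unknown, so the precision of low values such as those of Plk3 at 0 h could not be set.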
